A study of Mus musculus with 12 samples.

Results

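The interleukin-1 receptor gene cluster of mouse chromosome 1 holds 6 receptor genes in a row: Il1r2, Il1r1, Il1rl2, Il1rl1, Il18r1 and Il18rap. Its open chromatin was described from the assay for transposase-accessible chromatin (ATAC-seq), in which the Tn5 enzyme cuts DNA that is not tightly packed, so that more reads in a region mean more open DNA. A peak was counted to a receptor gene when its centre lay within the gene's protein-coding span on the mm10 build, and otherwise when that gene had the nearest protein-coding span within 50 kb. By this rule 126 of the 222105 peaks belonged to the cluster, 86 of them inside a gene span and 40 outside. Il1r1 had 38 peaks, Il1r2 28, Il1rl2 18, Il1rl1 15, Il18rap 14 and Il18r1 13. Of the 126 peaks, 117 passed the filter on low counts and were tested, and 9 did not.

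The cells were naive CD4+ T cells of C57/B6 mice, taken from spleen and dLN and turned in culture into homeostatic Th17 cells, a state of the helper T cell that makes interleukin-17. There were 4 groups of 3 libraries each: WT cells given dexamethasone (Dex, a synthetic glucocorticoid) for 2 days, WT control cells kept without it, GR cKO cells given Dex, and GR cKO control cells. GR is the glucocorticoid receptor, a hormone-activated transcription factor encoded by Nr3c1, and cKO is its conditional knockout. The sources used here do not name the Cre line behind the knockout, and the labels do not say whether replicates came from separate mice or cultures, so the p-values measure the spread between these libraries, which may be technical. Each library was made from 6000 sorted cells.

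IL-1R1, the product of Il1r1, is the signalling receptor for interleukin-1 alpha and beta, and it recruits a co-receptor and the adaptor MyD88 to activate NF-kB. IL-1 signalling through it is known to favour the formation of Th17 cells. IL-1R2, the product of Il1r2, binds the same ligands without a signalling domain and acts as a decoy, and glucocorticoids are known to raise it in human neutrophils and monocytes. The neighbouring genes encode the receptors for interleukin-36 (Il1rl2) and interleukin-33 (Il1rl1, also called ST2) and the pair of chains of the interleukin-18 receptor (Il18r1 and Il18rap).

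The 6 spans run from chr1:40084692-40125230 for Il1r2 through chr1:40222480-40316201 for Il1r1, chr1:40324589-40367555 for Il1rl2, chr1:40404864-40465418 for Il1rl1 and chr1:40465552-40500854 for Il18r1 to chr1:40515362-40551707 for Il18rap, a stretch of 467 kb in which all genes lie on the plus strand. RefSeq's promoter table (GRCm38.p6, a patch release of the assembly that mm10 names) listed 10 start sites for the 6 genes. The 250 bases before 4 of them are shown. They set the 2 genes with a changed site, Il1r2 and Il1r1, beside Il1rl1, whose listed starts had no peak. All are on the plus strand, and capitals mark the motif matches named after them.
Il1r2 promoter (chr1:40085843-40086092): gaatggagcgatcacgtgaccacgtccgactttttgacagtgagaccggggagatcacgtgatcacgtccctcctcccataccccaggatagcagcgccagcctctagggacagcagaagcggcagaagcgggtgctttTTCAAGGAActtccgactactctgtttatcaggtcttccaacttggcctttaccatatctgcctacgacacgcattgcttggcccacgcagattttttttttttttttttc
Il1r1 promoter, first start (chr1:40224830-40225079): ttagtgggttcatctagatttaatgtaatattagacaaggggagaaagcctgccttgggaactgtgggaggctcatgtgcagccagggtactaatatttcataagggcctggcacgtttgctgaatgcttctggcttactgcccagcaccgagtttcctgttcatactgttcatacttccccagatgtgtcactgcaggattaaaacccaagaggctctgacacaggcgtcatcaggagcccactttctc
Il1r1 promoter, second start (chr1:40266336-40266585): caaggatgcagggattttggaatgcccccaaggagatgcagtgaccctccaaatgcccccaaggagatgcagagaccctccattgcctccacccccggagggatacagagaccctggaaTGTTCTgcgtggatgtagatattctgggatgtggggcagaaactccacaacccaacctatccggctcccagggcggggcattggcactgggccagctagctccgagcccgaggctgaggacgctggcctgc
Il1rl1 promoter, second start (chr1:40439379-40439628): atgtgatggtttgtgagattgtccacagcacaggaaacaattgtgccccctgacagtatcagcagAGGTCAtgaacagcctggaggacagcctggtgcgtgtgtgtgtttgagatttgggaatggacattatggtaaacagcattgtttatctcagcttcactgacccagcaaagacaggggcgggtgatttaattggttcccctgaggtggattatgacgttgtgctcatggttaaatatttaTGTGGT

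The window searched in each promoter ran from 250 bases before to 50 bases after the start, on both strands. The full glucocorticoid response element, spelled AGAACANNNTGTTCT, was in none of the 10 cluster promoters and in 0.00913% of all 32851 promoters. A single arm of it, AGAACA, was in 1 cluster promoter, that of the second Il1r1 start, where it lies on the minus strand with its match beginning at position -131 from the start, against 19.0% of all promoters. A STAT motif (TTCNNNGAA) was in 2 cluster promoters, at position -111 of Il1r2 and at positions -219 and -152 of the third Il18r1 start, and in 8.3% of all. The ROR core site (AGGTCA) was in 1, at position -185 of the second Il1rl1 start, and in 16.3% of all. The RUNX motif (TGTGGT) was in 4 and in 16.8% of all. The AP-1 motif (TGACTCA) and a strict NF-kB consensus were in none of the cluster promoters, against 5.2% and 0.155% of all promoters. A motif match describes letters only. No genome sequence was used here, so the sites away from the starts were not searched.

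The 12 libraries held between 12988437 and 25081591 counts in peaks, and the cluster took 0.0594% to 0.0658% of each. Levels are given as CPM, read counts relative to the library total after scaling by the trimmed mean of M-values. For sums over a gene's peaks, counts were added first and then set against the total of gene-assigned peaks, with their own scaling. Summed CPM are therefore not the added CPM of single peaks. Nr3c1, the targeted gene, had 24 tested peaks, none of them called between the genotypes by edgeR's quasi-likelihood test, with smallest adjusted p of 0.501 in control cells and 0.38 in Dex cells. Its summed level was 117 to 128 CPM in cKO Dex and 116 to 128 CPM in WT Dex, and 111 to 123 CPM in cKO control and 111 to 122 CPM in WT control. Before adjustment, p was under 0.05 at 4 of the 24 peaks in control cells and at 3 in Dex cells, against 7.69% and 8.35% of all peaks. The sums of the genotypes overlapped, and a sum over 24 peaks could not show the loss of 1 deleted part, so these values do not check the knockout. The 13 CD4 T cell and Th17 markers all had peaks, with sums of 2320 to 2350 CPM in WT Dex, 2200 to 2280 CPM in WT control, 2340 to 2470 CPM in cKO Dex and 2280 to 2440 CPM in cKO control. The 5 B cell markers summed to 361 to 368 CPM in WT Dex, 386 to 409 CPM in WT control, 398 to 430 CPM in cKO Dex and 411 to 439 CPM in cKO control. The mast cell, basophil and type 2 innate lymphoid markers, cell types that carry ST2, had peaks at 5 of 7 genes (none at Fcer1a and Mcpt8) and summed to 225 to 250 CPM in WT Dex, 241 to 245 CPM in WT control, 234 to 249 CPM in cKO Dex and 238 to 248 CPM in cKO control. The 5 CD8 T and NK markers summed to 131 to 136 CPM in WT Dex, 141 to 148 CPM in WT control, 131 to 141 CPM in cKO Dex and 134 to 140 CPM in cKO control. The 5 myeloid and dendritic markers summed to 132 to 147 CPM in WT Dex, 130 to 147 CPM in WT control, 137 to 140 CPM in cKO Dex and 151 to 152 CPM in cKO control. The 3 regulatory T markers summed to 568 to 592 CPM in WT Dex, 579 to 617 CPM in WT control, 619 to 663 CPM in cKO Dex and 609 to 672 CPM in cKO control. The WT Dex and WT control ranges did not overlap for the CD4 T cell and Th17, B cell, and CD8 T and NK lists, nor the cKO Dex and cKO control ranges for the myeloid list. Between the genotypes under Dex, the ranges did not overlap for the B cell and regulatory T lists. Without Dex, those of the genotypes did not overlap for the B cell, CD8 T and NK, and myeloid lists. The part of these marker levels in the results was not tested. The share of counts in the strongest 10% of peaks also moved with the groups, at 60.8% to 63.5% in WT Dex, 60.6% to 62.0% in WT control, 58.1% to 61.6% in cKO Dex and 57.9% to 60.3% in cKO control. In bulk libraries, more cells with a site open and a more open site in each cell cannot be told apart.

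The cluster's accessibility was concentrated in few sites, as it was over all tested peaks, where the strongest 10% held 57.9% to 63.5% of a library's counts. Mean levels over the 12 libraries ran from 0.29 to 59.3 CPM with a median of 1.25 CPM. The 15 peaks at 10 CPM or more held 63.4% of the cluster's signal, and 52 peaks lay under 1 CPM. Among tested peaks, 12.8% of the cluster's and 12.3% of all peaks reached 10 CPM. The strongest site, chr1:40055558-40056554, lay outside the genes, 30.0 kb upstream of the Il1r2 start, at 59.3 CPM, and was nearly as close to the span of Map4k4 (29.7 kb) as to that of Il1r2 (28.6 kb). The strongest Il1r1 site, chr1:40235411-40236853, lay 11.1 kb downstream of the gene's first start at 40.1 CPM. The strongest Il1rl1 site, chr1:40392931-40393948, averaged 34.8 CPM. It lay 36.1 kb upstream of the gene's first listed start and 11.4 kb outside its span.

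Start sites differed in whether they were open. The peak over the Il1r2 start was broad, chr1:40084474-40088296, and averaged 34 CPM, or 8.89 CPM per kb of peak. It also overlapped the lncRNA gene Gm16894. The first Il1r1 start lay under a peak of 13.7 CPM (17.2 CPM per kb), and the second under one of 1.82 CPM (2.94 CPM per kb). The Il18r1 starts shared 1 peak of 14.3 CPM (14.3 CPM per kb), the Il18rap start had one of 7.26 CPM (9.16 CPM per kb) and the Il1rl2 start one of 3.76 CPM (3.35 CPM per kb). Neither listed Il1rl1 start had a peak over it. Both lie inside the gene span, whose first base, 40404864, was under a weak peak of 0.657 CPM (chr1:40404642-40404899). The peaks nearest to the listed starts were 6465 bases from the first, at 0.558 CPM, and 2025 bases from the second, at 1.06 CPM. Il1rl1 held strong sites elsewhere.

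**Figure D1:**
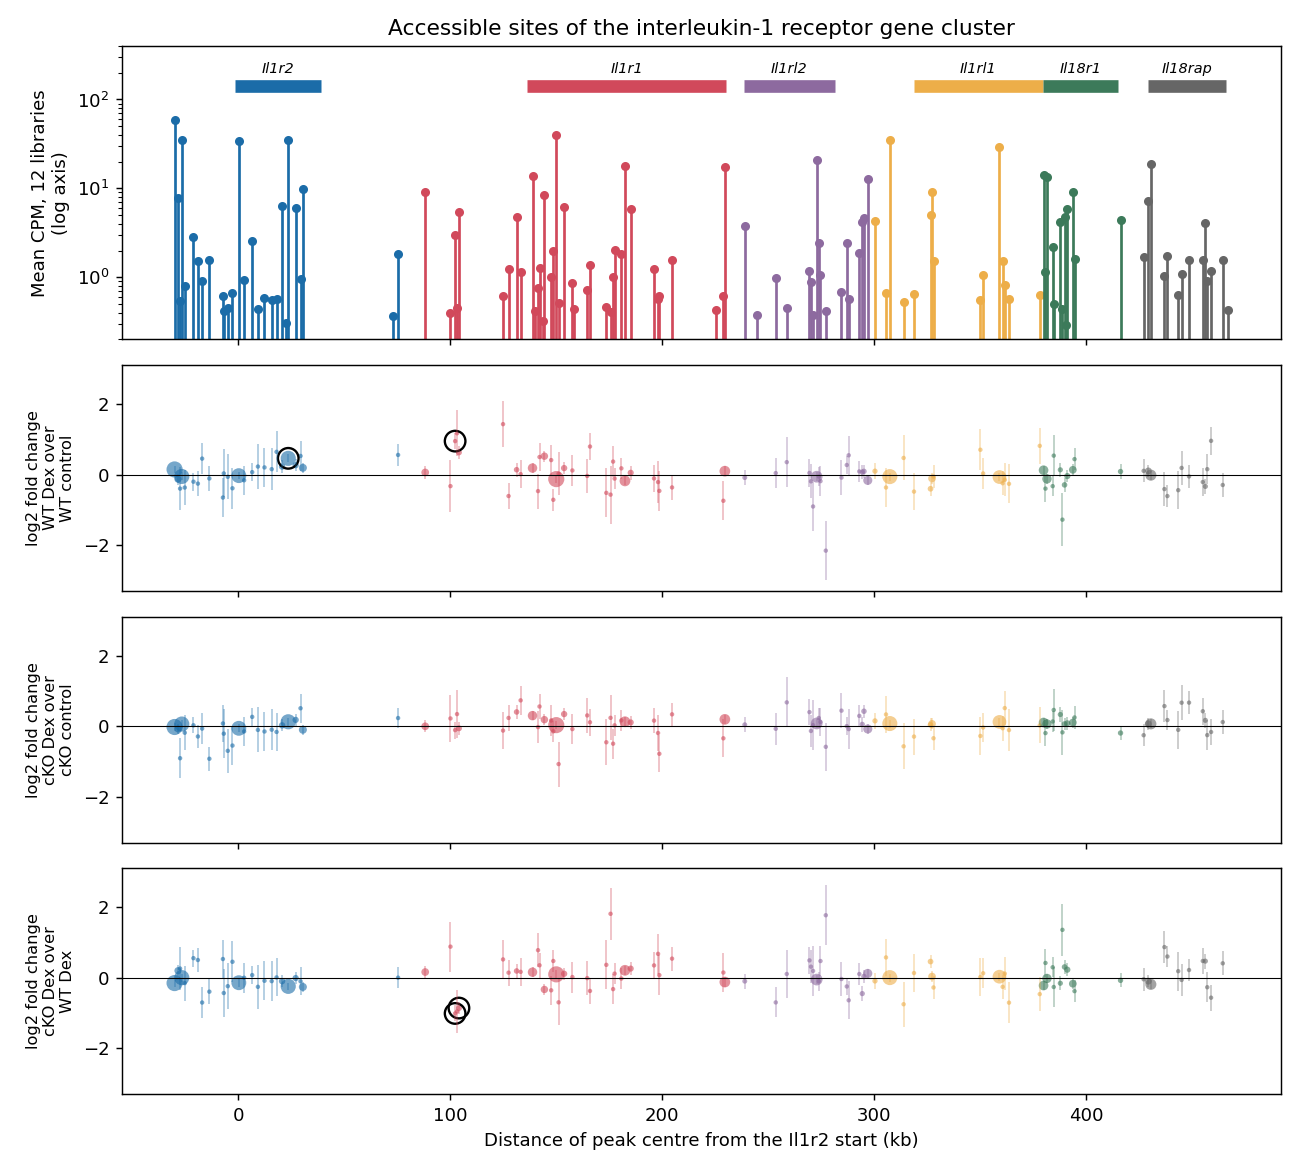
Top, the mean level of each of the 126 peaks in CPM on a log axis against the distance of its centre from the Il1r2 start in kb, coloured by gene, with bars for the 6 gene spans. Below, the log2 fold change of each tested peak for WT Dex over WT control, cKO Dex over cKO control and cKO Dex over WT Dex, with bars for 1 standard error and dot size for the level. Black rings mark the called peaks, 2 in WT, none in cKO and 2 between cKO Dex and WT Dex.

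Dex raised accessibility in WT cells at 2 sites of the cluster, and no lower site was called. The sites were 1 inside Il1r2 and 1 upstream of Il1r1. Among the 117 tested cluster peaks this was 1.71%, against 0.534% of all 202587 tested peaks called in either direction, 0.42% called higher and 0.114% called lower (edgeR quasi-likelihood test, Benjamini-Hochberg adjusted p under 0.05). At an unadjusted p under 0.05 the cluster had 10 peaks, or 8.55%, against 8.32% of all peaks. The median log2 fold change was -0.03 over the cluster and -0.001 over all tested peaks. At the unadjusted threshold, the cluster's share was thus near that of all peaks.

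The Il1r2 site, chr1:40108982-40110309, lies within the decoy receptor gene, 23.6 kb downstream of its start. It had 43.1, 44.8 and 38.6 CPM in WT Dex, set against 27, 30.4 and 34.0 CPM in WT control. It had 37.3, 38.1 and 31.4 CPM in cKO Dex, against 29.1, 36.4 and 32.4 CPM in cKO control. All WT Dex libraries lay above all WT control libraries, while the cKO groups overlapped. Dex raised it by log2 0.46 ± 0.11 in WT, or 1.38-fold (SE, edgeR quasi-likelihood adjusted p = 0.0235), and the cKO value was log2 0.13 ± 0.11 (adjusted p = 0.913). The difference between the Dex effects, WT minus cKO, was log2 0.34 ± 0.155 with an edgeR adjusted p of 0.856 (unadjusted 0.0346), so a difference between genotypes was not shown. With the share of counts in the strongest peaks as a covariate, the value in WT was log2 0.34 ± 0.0815 and was called (edgeR adjusted p = 0.013). The call in WT was lost without WT Dex replicate 1 (0.45) or 2 (0.41), WT control replicate 1 (0.38) or 2 (0.45), or cKO control replicate 3 (0.45), the values in brackets being log2 fold changes.

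Neighbouring peaks in the same part of Il1r2 were not called. At 27.1 kb downstream of the start, 5.8, 6.25 and 7.49 CPM in WT Dex stood against 5.34, 5.72 and 5.2 CPM in WT control. At 30.5 kb downstream, 11, 11.1 and 10.8 CPM in WT Dex stood against 8.92, 9.56 and 10.2 CPM in WT control. In both, the WT groups did not overlap (log2 0.27 ± 0.174 and 0.19 ± 0.142, edgeR adjusted p = 0.748 and 0.795). These peaks were picked out after their values were seen. The Il1r2 start itself had 36.9, 37.1 and 31.4 CPM in WT Dex and 37.4, 36.1 and 34.0 CPM in WT control, groups that overlapped (log2 -0.03 ± 0.108). The strongest site, 30.0 kb upstream, had 64.9, 66.6 and 59.9 CPM in WT Dex and 57.1, 62.7 and 53.0 CPM in WT control, which also overlapped (log2 0.15 ± 0.0996, edgeR adjusted p = 0.764).

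The Il1r1 site, chr1:40188156-40188626, lies between the genes, 36.7 kb upstream of the first Il1r1 start, 34.1 kb from the Il1r1 span and 63.2 kb from that of Il1r2. It had 3.84, 5.91 and 4.37 CPM in WT Dex, set against 2.97, 2.46 and 2.02 CPM in WT control. It had 2.2, 2.46 and 2.38 CPM in cKO Dex, against 2.28, 2.77 and 2.52 CPM in cKO control. The WT Dex libraries stood above the other 9, which lay close together. Dex raised it by log2 0.95 ± 0.231 in WT, or 1.93-fold (edgeR quasi-likelihood adjusted p = 0.0289), against log2 -0.11 ± 0.242 in cKO (adjusted p = 0.972). The difference between the Dex effects was log2 1.06 ± 0.335 (unadjusted p = 0.00242), which did not pass edgeR's adjustment over all peaks (adjusted p = 0.592). With the same covariate the value in WT was log2 0.90 ± 0.25, just within the threshold (edgeR adjusted p = 0.0491). Counts at this site were 38 to 106 per library, so its counting error is larger than at the Il1r2 site, with 354 to 918. Its call in WT was lost without WT Dex replicate 2 (log2 0.75) or 3 (1.01), or WT control replicate 2 (0.95) or 3 (0.81).

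A second site followed 1.8 kb further on, chr1:40189980-40190457, 34.9 kb upstream of the first Il1r1 start. It had 8.45, 7.87 and 7.37 CPM in WT Dex, set against 4.19, 5.52 and 5.4 CPM in WT control. It had 4.35, 4.57 and 4.12 CPM in cKO Dex, against 4.5, 5.17 and 3.87 CPM in cKO control. Here too every WT Dex library was above every library of the other groups. The Dex effect in WT was log2 0.63 ± 0.174 with an edgeR adjusted p of 0.0832, so this site was not called, and in cKO it was log2 -0.06 ± 0.183. The difference between the Dex effects was log2 0.69 ± 0.253 (edgeR adjusted p = 0.728, unadjusted 0.00842). With the covariate the value in WT was log2 0.53 ± 0.181 (edgeR adjusted p = 0.167). Between the pair, 35.8 kb upstream, lay a weak peak picked out for its place. It had 1.13, 0.558 and 0.624 CPM in WT Dex and 0.534, 0.0986 and 0.412 CPM in WT control. Counts there were only 2 to 18 per library over all 12, and a difference was not called (log2 1.17 ± 0.645, edgeR adjusted p = 0.663).

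**Figure D2:**
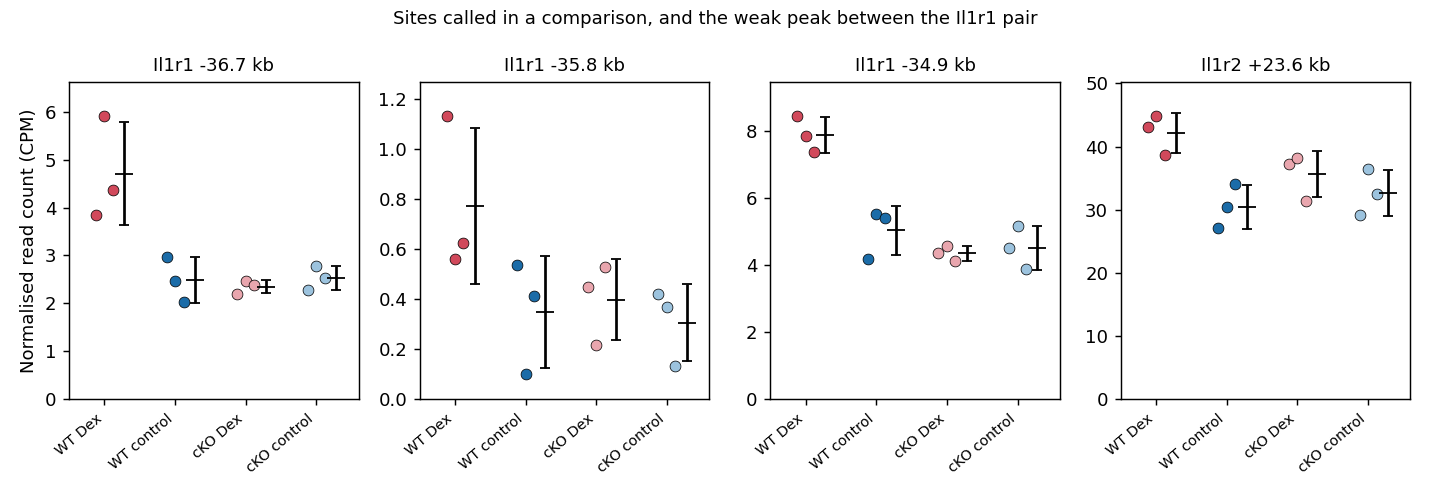
Normalised read count in CPM by library (points) with the mean and SD of each group (bars, n = 3) at the pair of sites upstream of Il1r1, the weak peak between them and the site within Il1r2, titled by kb from the gene's first start. The WT Dex points stand above those of the other groups at the pair of Il1r1 sites, with 7.37 to 8.45 CPM at the site 34.9 kb upstream.

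Elsewhere in Il1r1, no tested peak was called with Dex in WT. The first start had 14.3, 15.3 and 12.5 CPM in WT Dex, set against 11.2, 11.8 and 13.8 CPM in WT control, and 17.2, 17.1 and 12.6 CPM in cKO Dex against 11.7, 13.4 and 13 CPM in cKO control. The groups overlapped in both genotypes (log2 0.19 ± 0.137 in WT and 0.30 ± 0.134 in cKO, edgeR adjusted p = 0.794 and 0.842). The strongest Il1r1 site had 42.2, 37.9 and 34.4 CPM in WT Dex, set against 37.7, 43.1 and 43.8 CPM in WT control (log2 -0.13 ± 0.111, edgeR adjusted p = 0.845). A site 5.4 kb downstream of the first start, named after its values were seen, had 13.9, 8.98 and 9.24 CPM in WT Dex libraries, and 7.02, 7.39 and 7.75 CPM in WT control. Its WT groups did not overlap, and 1 WT Dex library was far above the others (log2 0.52 ± 0.157, edgeR adjusted p = 0.141).

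Il1rl2, Il1rl1, Il18r1 and Il18rap had no called peak with Dex in WT by the edgeR test, among 17, 15, 12 and 13 tested. The strongest Il1rl2 site, 34.3 kb downstream of its start, had 19.6, 24.8 and 20.2 CPM in WT Dex and 23.2, 23.8 and 20.6 CPM in WT control (log2 -0.06 ± 0.125). The strongest Il1rl1 site had 35.4, 36.4 and 32.8 CPM in WT Dex and 34.6, 38.8 and 35.2 CPM in WT control (log2 -0.06 ± 0.114). Both pairs of groups overlapped. At a site inside the Il1rl1 span, but 17.0 kb upstream of its first listed start, the WT groups did not overlap. WT Dex had 3.47, 3.85 and 4.71 CPM, below 4.81, 5.62 and 5.4 CPM in WT control. The difference did not pass the test (log2 -0.40 ± 0.195, edgeR adjusted p = 0.583). The peak over the Il18r1 starts had 17.1, 14.9 and 16.1 CPM in WT Dex and 13.6, 14.5 and 15.9 CPM in WT control (log2 0.13 ± 0.133). The strongest Il18rap site, 1.1 kb downstream of its start, had 19.7, 21.9 and 18.9 CPM in WT Dex and 17.2, 23.1 and 20.6 CPM in WT control (log2 -0.02 ± 0.13). The groups overlapped at both.

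The site of Il1rl1 17.0 kb upstream, with a mean of 5.04 CPM, had the smallest p of that gene, and in Il18rap, Il1rl2 and Il18r1 the peaks with the smallest p were weaker. An Il18rap peak 29.5 kb downstream of its start had 1.89, 1.17 and 1.76 CPM in WT Dex, set against 0.534, 0.69 and 1.15 CPM in WT control, and log2 0.96 ± 0.388 (edgeR adjusted p = 0.431). An Il1rl2 peak 38.6 kb downstream had 0, 0.279 and 0.0567 CPM in WT Dex, set against 0.763, 0.394 and 0.495 CPM in WT control, with an edgeR adjusted p of 0.392. An Il18r1 peak 9.2 kb downstream had 0, 0.0558 and 0.51 CPM in WT Dex, set against 0.61, 0.345 and 0.495 CPM in WT control, with an edgeR adjusted p of 0.7. At these levels a library has few counts, and none of the differences passed the test. Over the cluster, all WT Dex libraries exceeded all WT control libraries at 11 of 117 peaks (9.4%, against 6.96% of all peaks) and fell below them at 6 (5.13%, against 6.9%).

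**Figure D3:**
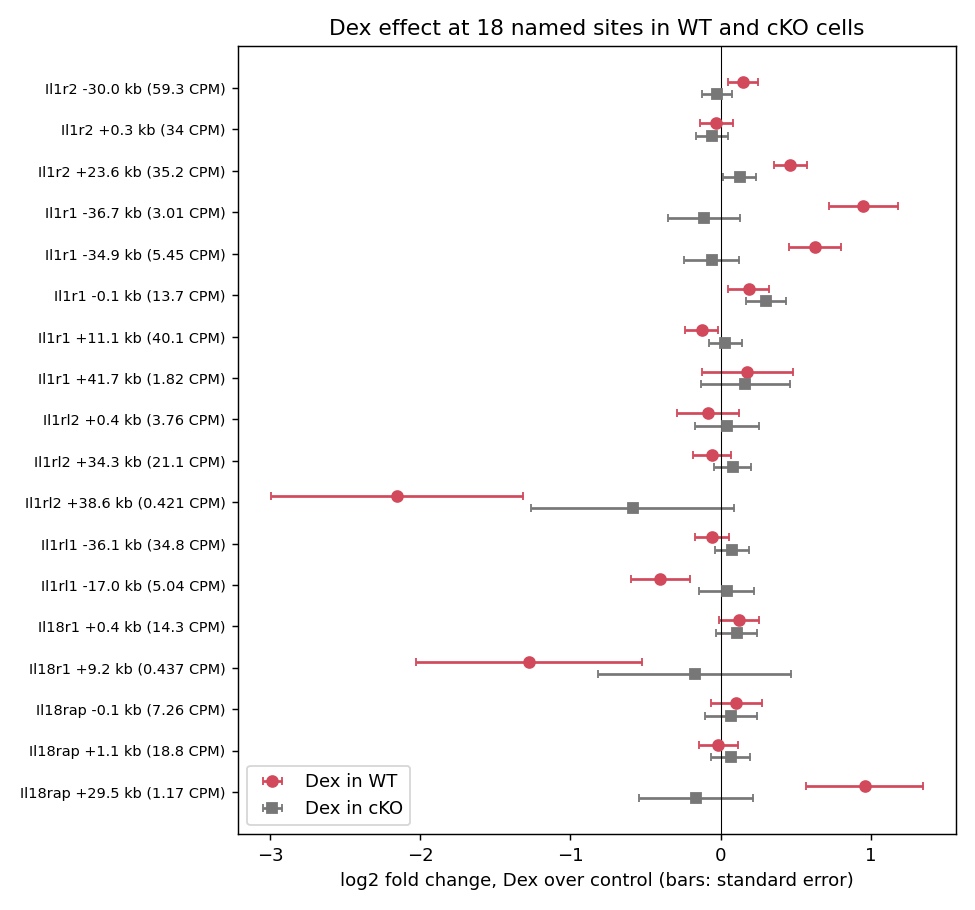
Log2 fold change of Dex over control at 18 sites, with bars for 1 standard error. Labels give the gene, kb from its first listed start and mean CPM. Circles are WT and squares cKO. The site 36.7 kb upstream of Il1r1 stands at 0.95 in WT and -0.11 in cKO, and most strong sites lie near 0 in both.

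In cKO cells, no cluster peak was called with Dex. Of the 117, 0 passed edgeR's quasi-likelihood test, against 0.00296% of all peaks, and 6 (5.13%) had an unadjusted p under 0.05, against 5.84% of all. The 3 cKO Dex libraries were all above the cKO controls at 7 peaks (5.98%, against 5.28% of all) and all below at 1 (0.855%, against 5.5%). DESeq2 and limma-voom also called none. Without cKO Dex replicate 3 the calls over all peaks with Dex in cKO were 314 (41 higher), in place of 6, and none was in the cluster. The median log2 fold change was 0.05 over the cluster and -0.004 over all peaks. The difference between the Dex effects, WT minus cKO, was called at no cluster peak by edgeR, DESeq2 or limma-voom (background 0.0276%), and 4 peaks had an unadjusted p under 0.05 (3.42%, against 5.65%).

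Between the genotypes under Dex, 2 cluster peaks were lower in cKO and none higher, and they were the pair upstream of Il1r1. This was 1.71% of tested cluster peaks, against 0.17% of all peaks called in either direction and 0.13% called lower. Before adjustment, edgeR's p was under 0.05 at 10 cluster peaks (8.55%), 5 higher and 5 lower in cKO, near the 8.35% of all peaks. The site 36.7 kb upstream averaged 2.34 ± 0.133 CPM in cKO Dex and 4.71 ± 1.08 CPM in WT Dex (SD, n = 3 each), a log2 fold change of -1.01 ± 0.227 (SE, edgeR quasi-likelihood adjusted p = 0.0279). The site 34.9 kb upstream averaged 4.35 ± 0.223 CPM in cKO Dex and 7.9 ± 0.538 CPM in WT Dex, a log2 fold change of -0.86 ± 0.174 (edgeR adjusted p = 0.00762). This comparison and that of Dex in WT share the WT Dex libraries, so they are not independent. The share of counts in the strongest peaks was higher in WT Dex than in cKO Dex in most libraries, and with that share as a covariate the fold changes were -0.93 and -0.71 and neither was called (edgeR adjusted p = 0.084 and 0.0702). With the covariate 2 other Il1r1 peaks were called instead, both higher in cKO Dex than in WT Dex. They were the strongest Il1r1 site (log2 0.33 ± 0.0867, edgeR adjusted p = 0.0384) and chr1:40268015-40269033, 43.4 kb downstream of the first start (log2 0.43 ± 0.115, edgeR adjusted p = 0.0461). Without the covariate these had log2 0.10 ± 0.111 and 0.21 ± 0.127 (edgeR adjusted p = 0.886 and 0.696), so which cluster peaks were called between the genotypes under Dex, and their direction, depended on this covariate. Neither of the pair was called without WT Dex replicate 2 (log2 -0.80 at the site 36.7 kb upstream and -0.85 at that 34.9 kb upstream) or without cKO Dex replicate 1 (-0.96 and -0.85). The site 36.7 kb upstream also lost its call without cKO Dex replicate 2 (log2 -1.05) or 3 (-1.01), and that 34.9 kb upstream without WT Dex replicate 1 (-0.81). The Il1r2 site averaged 35.6 ± 3.67 CPM in cKO Dex and 42.1 ± 3.22 CPM in WT Dex, which was not called (log2 -0.24 ± 0.109, edgeR adjusted p = 0.532).

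Without Dex, no cluster peak was called between the genotypes by edgeR's quasi-likelihood test (background 0.0104%), DESeq2 or limma-voom, and 3 peaks (2.56%, against 7.69% of all) had an unadjusted p under 0.05. At the site 36.7 kb upstream of Il1r1 the values were 2.52 ± 0.243 CPM in cKO control and 2.49 ± 0.477 CPM in WT control (log2 0.05 ± 0.246). At that 34.9 kb upstream they were 4.51 ± 0.648 CPM in cKO control and 5.04 ± 0.733 CPM in WT control (log2 -0.17 ± 0.183). At the Il1r2 site they were 32.6 ± 3.65 CPM in cKO control and 30.5 ± 3.51 CPM in WT control (log2 0.09 ± 0.111). At all of these the control groups overlapped.

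Summed over all peaks of a gene, accessibility per kb of peak was highest at Il1rl1, with a mean of 14.2 CPM per kb (12.8 to 15.6 over the libraries), and at Il1r2, with 12.9 (12.2 to 13.7). Il1r1 followed with 10.2 (9.21 to 11.3), Il18r1 with 9.95 (9.04 to 10.6), Il1rl2 with 7.57 (6.81 to 8.19) and Il18rap with 6.78 (5.82 to 7.4). The ranges of Il1rl1 and Il1r2, of Il1r1 and Il18r1, and of Il1rl2 and Il18rap overlapped, and those between these pairs did not. The sums take in strong sites outside the gene spans. At Il1rl1 this was the site of 34.8 CPM 11.4 kb outside, and at Il1r2 among others that of 59.3 CPM 28.6 kb outside. The order without such sites was not tested. None of the 6 sums was called in any comparison by edgeR's quasi-likelihood test on summed counts, against 2.64% of 17358 genes for Dex in WT, 0.00576% for Dex in cKO, 0.219% for the difference of the Dex effects, 0.213% for genotype in control cells and 2.3% for genotype in Dex cells. Il1r2 for Dex in WT, for the difference and for genotype in control cells, and Il1r1 for genotype in Dex cells, were under 0.05 before adjustment (edgeR adjusted p = 0.372, 0.591, 0.261 and 0.306).

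Il1r2 summed to 225, 235 and 236 CPM in WT Dex, set against 216, 224 and 216 CPM in WT control. It summed to 219, 242 and 222 CPM in cKO Dex, against 225, 243 and 239 CPM in cKO control. The WT groups did not overlap, but the change of log2 0.09 ± 0.0414 was not called (edgeR adjusted p = 0.372, unadjusted 0.0492). Il1r1 summed to 162, 166 and 164 CPM in WT Dex, set against 151, 163 and 168 CPM in WT control, and to 182, 185 and 162 CPM in cKO Dex, against 166, 181 and 162 CPM in cKO control. Its WT groups overlapped (log2 0.03 ± 0.0504, edgeR adjusted p = 0.899), with both upstream sites included in the sum.

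Il1rl1 had values of the opposite sign in WT, with 93.1, 91.9 and 92.0 CPM in WT Dex, set against 96.8, 103 and 100 CPM in WT control. The groups did not overlap, and the value of log2 -0.12 ± 0.0589 was not called (edgeR adjusted p = 0.41, unadjusted 0.0603). With the share of counts in the strongest peaks as a covariate it was log2 -0.18 ± 0.0537 and was called (edgeR adjusted p = 0.0384). With that covariate Il1r1 and Il1rl1 were also called higher in cKO Dex than in WT Dex (log2 0.19 ± 0.0487 and 0.20 ± 0.0593, edgeR adjusted p = 0.00703 and 0.0253). Il1rl2, Il18r1 and Il18rap averaged 62.9 ± 4.2, 66.0 ± 4.53 and 45.1 ± 4.24 CPM in WT Dex and 66.5 ± 3.03, 67.6 ± 5.05 and 47.6 ± 0.531 CPM in WT control (SD, n = 3 each), differences within the spread of the libraries.

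**Figure D4:**
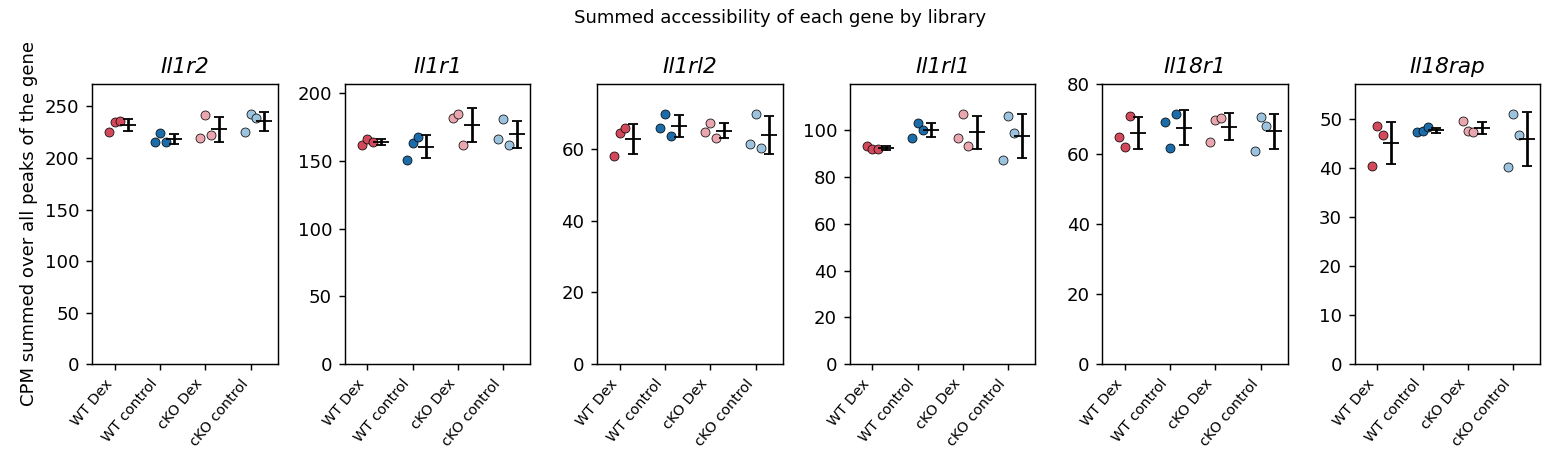
Counts summed over all peaks of each gene by library (points), as CPM of the counts in gene-assigned peaks, with the mean and SD of each group (bars, n = 3), each axis from 0. Il1r2 lies higher in WT Dex (225 to 236) than in WT control (216 to 224) and Il1rl1 lower, while the WT groups of the other 4 genes overlap.

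Other genes of the IL-1 pathway were read from lists chosen with earlier results of these data known. Of 11 genes for IL-1 family ligands and soluble inhibitors, 7 had a peak, and none had a called peak with Dex in WT. By gene sums, 1 of the 7 was called with Dex in WT, against 2.64% of all genes: Il1a, which encodes interleukin-1 alpha, fell by log2 0.32 (edgeR adjusted p = 0.0136). Of 4 co-receptors and relatives outside the cluster, among them Il1rap, the co-receptor of IL-1R1, none had a called peak. Of 20 genes that act downstream of the receptors, 3 had a higher and 1 a lower peak with Dex in WT by edgeR's test. The share of all peaks called was 0.534%, and these genes held 428 tested peaks, of which 5 were called (1.17%). By gene sums, 2 of the 20 were called, both higher with Dex in WT: Nfkbiz (log2 0.34, edgeR adjusted p = 0.000918) and Nfkb1, which encodes an NF-kB subunit (log2 0.16, adjusted p = 0.00958). None of the 4 co-receptor sums was called.

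The smallest adjusted p among these was at Nfkbiz, which encodes the nuclear NF-kB cofactor IkB-zeta, where a peak had 7.56, 9.54 and 9.19 CPM in WT Dex, set against 4.27, 4.44 and 3.63 CPM in WT control, and 4.31, 4.74 and 3.33 CPM in cKO Dex against 6, 4.65 and 4.52 CPM in cKO control. It rose by log2 1.10 ± 0.181 in WT (edgeR adjusted p = 9.1e-05). There the difference between the Dex effects was itself called (log2 1.38 ± 0.26, edgeR adjusted p = 0.00964), as it was not at the Il1r1 and Il1r2 sites. The other genes were Peli1 (log2 1.33 ± 0.271, edgeR adjusted p = 0.00322) and Peli2 (log2 -1.04 ± 0.251, adjusted p = 0.0268), which encode Pellino ubiquitin ligases, and Map3k7 (log2 0.46 ± 0.115, adjusted p = 0.0402), which encodes the kinase TAK1. The Peli1 peak lay 41704 bases outside the gene span and the Map3k7 peak 21597 bases, while the Peli2 peak lay inside. The sums of Peli1, Peli2 and Map3k7 were not called (edgeR adjusted p = 0.656, 0.256 and 0.754). Of 7 flanking genes on the chromosome, Rfx8 had a higher peak, 38398 bases outside its span (log2 0.55 ± 0.138, edgeR adjusted p = 0.0407). This was 1 of 179 tested flanking peaks (0.559%), near the 0.534% of all peaks. No gene of these lists was called with Dex in cKO.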

How the data were processed

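Bulk ATAC-seq of 12 mouse libraries in 4 groups of 3 was used as 1 deposited table of raw counts per joint peak, made by the authors on mm10. The submitters' processing notes name featureCounts 2.1.1, Genrich 0.6.1, Bowtie2 2.3.5 and, beside these, deepTools 3.5.6, SAMtools 1.3, Trimmomatic 0.39 and Picard 2.18.27. The sources used here do not give their order and settings, any shift for Tn5, whether peaks were called on pooled libraries, or whether reads or fragments were counted. The libraries were amplified with 16 PCR cycles, per the labels' protocols.

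Peaks were tied to genes with RefSeq spans. edgeR 4.0.16 (R 4.3.3) was run on all 222105 peaks with filterByExpr (minimum count 10, minimum total 15), which kept 202587, TMM scaling, robust quasi-likelihood fits with 8 residual degrees of freedom and Benjamini-Hochberg adjustment over all tested peaks, called at 0.05. The same fit was run on counts summed per gene. The contrasts were Dex in each genotype, their difference, and genotype in control and in Dex cells. The script was tested on simulated counts. Libraries of a group differed beyond sampling noise (chi-square per degree of freedom 2.05 to 3.69), so none was treated as a duplicate. Alternatives included limma-voom (limma 3.58.1) and DESeq2 1.42.0. Motifs were searched in RefSeq promoters of GRCm38.p6, matched by symbol for 6 of 6 genes.

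The sites described are the called peaks and, for each gene, the strongest peak, the peak with the smallest p for Dex in WT and peaks over starts. The members and lists were chosen with earlier results of these data known. Exons and introns were not used here.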

Additional observations from a re-analysis of the deposited data

How the results depend on the processing

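With Dex in WT, the 2 called cluster peaks were 0 to 2 when 1 library was left out, with 0 without WT Dex replicate 2 or WT control replicate 2. Between the genotypes under Dex, the 2 called peaks were also 0 to 2, with 0 without WT Dex replicate 2 or cKO Dex replicate 1. Leaving out a library also changed how many peaks passed the filter. With the share of counts in the strongest peaks as a covariate the count stayed at 2, but both peaks were replaced by 2 others in Il1r1 that were higher in cKO Dex (log2 0.33 and 0.43). Counting only peaks inside a gene left 1 peak with Dex in WT and 0 between the genotypes under Dex. With that covariate, the called gene sums were 1 with Dex in WT and 2 between the genotypes under Dex, against 0 without it, and the cause was not tested. No alternative reversed a called value, and the difference of the Dex effects at the pair of Il1r1 sites and the Il1r2 site was called in 0 of 20 alternatives. The Il1r2 site with Dex in WT ranged from log2 0.34 to 0.55 and the site 36.7 kb upstream of Il1r1 from 0.75 to 1.08, and both were called in all 9 alternatives other than those that left out 1 library or counted only peaks inside a gene. The site 34.9 kb upstream was called with Dex in WT in 3 of 21 alternatives, namely loess offsets (0.62), limma-voom (0.62) and only the 6 libraries compared (0.61). Over all peaks, the 1081 calls with Dex in WT (851 higher) became 1757 (1032 higher) with total counts, 2146 (1268 higher) with loess offsets, 2254 (1067 higher) with the covariate and 507 without WT Dex replicate 1. Between the genotypes under Dex, 345 calls (81 higher) became 894 (504 higher) with total counts, 1005 (542 higher) with loess offsets and 1818 (1236 higher) with the covariate. With Dex in cKO, 6 calls became 314 without cKO Dex replicate 3. The difference of the Dex effects had 56 calls and 29 to 250 under the alternatives, and genotype in control cells 21 calls and 13 to 214. To look for pairs, each group's mean log2 CPM was subtracted at every tested peak. What remained had correlations of -0.19 to 0.25 between same-numbered libraries over 18 pairs, 3 of them over 0.1. These are not correlations of the levels themselves, and the libraries were not paired in the main fits. In these centred values, 7 of the 12 libraries correlated best outside their group with one of their own number. Between WT Dex and cKO Dex the same-numbered values were 0.074, 0.111 and 0.25, and between WT Dex and WT control -0.075, 0.052 and -0.117. Centred values of a group cancel out at each peak, so correlations with other numbers are largely set by these and are no separate comparison. Whether the numbers mark pairs was not settled. With the replicate number as a block, the cluster counts were 2 and 2, with log2 0.46 at the Il1r2 site, while over all peaks the calls became 1747 (1300 higher) with Dex in WT, 1017 (255 higher) between the genotypes under Dex, 173 between the genotypes in control cells, 99 for the difference and 7 with Dex in cKO. Intervals and errors cover the spread between libraries at this depth. Peaks under 1 CPM had few counts, and the size of change that could be detected there was not tested.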

Other observations

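The genes whose summed accessibility followed each receptor gene most closely over the 12 libraries were listed for description, from 13658 genes with a mean sum of at least 10 CPM. The libraries share depth and quality differences that can move many genes together, so no function is read from likeness. For Il1r2 they were Lmo2, Pxylp1 and Slc10a7 (Pearson r = 0.918, 0.912 and 0.897 over 12 libraries). For Il1r1 they were Odaph, Acbd6 and Sgip1 (0.927, 0.927 and 0.914), for Il1rl2 Traf3, Vangl2 and Plagl1 (0.925, 0.873 and 0.851), and for Il1rl1 Krt6b, Synj2 and Ifi47 (0.932, 0.925 and 0.914). For Il18r1 they were Fam83f, Slc30a2 and Gipc1 (0.827, 0.820 and 0.805), and for Il18rap Armcx2, Rgs9 and Snapc2 (0.891, 0.864 and 0.856). High r was common, as the 99th percentile over the genes compared ran from 0.607 for Il18r1 to 0.771 for Il1r1. Between the receptor genes themselves r ran from 0.044, for Il18r1 and Il1r1, to 0.704, for Il1rl2 and Il18rap.

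Base composition differed between the promoters. In the 250 bases before the start, Il1r2 had 14 CpG and 51.2% G and C, and the first Il1r1 start had 3 CpG and 48.4%. The first Il1rl1 start had 0 CpG and 37.6%, and the second 3 CpG and 46.4%. The median over all promoters was 6 CpG and 52.4%.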
